A study of Sus scrofa with 6 samples.

Results

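Mitochondria are closed by a pair of membranes, and nearly every metabolite and protein that enters them needs a dedicated passage. Small metabolites cross the outer membrane through the voltage-dependent anion channels (VDAC) and the inner membrane through the SLC25 carriers, which exchange nucleotides, phosphate, acids, acylcarnitines, cofactors and iron. Proteins made in the cytosol, the SLC25 carriers among them, enter through the TOM complex of the outer membrane and are passed on by the TIM complexes of the inner membrane, with the small TIM chaperones escorting carriers across the space between. In white fat, carriers supply the matrix with substrates and ADP and return citrate, ATP and reducing equivalents to the cytosol for fat synthesis.

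The genes described here were those whose symbol in the platform annotation began with SLC25, TIMM, TOMM or VDAC, with SLC25A1 left out. These were 41 of the 6765 genes on the array with 1 symbol, and comprised 20 carriers, 18 import genes (7 TOMM and 11 TIMM genes) and 3 VDAC pores. They were measured in backfat of male hybrids of Pietrain and Landrace, taken from the middle layer at the level of the 6th rib when the pigs were slaughtered at 175 days of age. Boars were left intact and barrows were castrated by surgery, under anesthesia, at 7 days of age, and all animals were weaned at 30 days and fed freely. Of 15 pairs of full brothers, 1 brother was a boar and the other a barrow, and RNA of 5 animals of 1 kind was pooled for each array, which gave 3 boar and 3 barrow pools on Affymetrix porcine arrays. Values are MAS5 signals on a linear scale as the authors scaled them, and each gene is represented by its brightest probe set. A replicate is a pool, so the errors describe the spread between pools, not between pigs, and precision is limited by the number of arrays.

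The log2 signals of the 14399 probe sets tested correlated at 0.978 to 0.988 within groups and at 0.975 to 0.983 between them. Principal component 1 (31.6% of the variance) had barrow replicate 2 at its far end, on the side of the barrow pools. Adipocyte markers were bright, with ADIPOQ, FABP4 and LPL at mean signals of 21722, 17858 and 15679. None of the 9 skeletal muscle markers on the array passed the filter on dim probe sets, and their mean signals ran from 3.30 to 78.1. Signals of different genes come from different probes, so their levels are not ranked. Ratios and sums of genes are used only to compare pools.

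In barrow fat 1 of the 40 tested genes was higher than in boar fat, the pyrimidine nucleotide carrier SLC25A33, and none was lower (limma, adjusted p under 0.05 over all 14399 probe sets). It had 1.80 times the boar level. The heart and muscle type ADP/ATP carrier SLC25A4 (1.33-fold) and the pore VDAC1 (1.27-fold) were higher in every barrow pool than in any boar pool and passed the threshold in the fit that paired pools by replicate number (the replicate block), but not in the unpaired one. No import gene passed in either fit. Over all probe sets tested 0.701% were higher in barrows and 0.458% lower, and with the pairing 1.49% and 0.854%. Of the 5356 tested genes, with 1 probe set each, 52 were higher and 29 lower, and with the pairing 114 and 52. The only gene below the filter was SLC25A51, an NAD carrier, whose signals lay between 2.14 and 22.2.

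**Figure D1:**
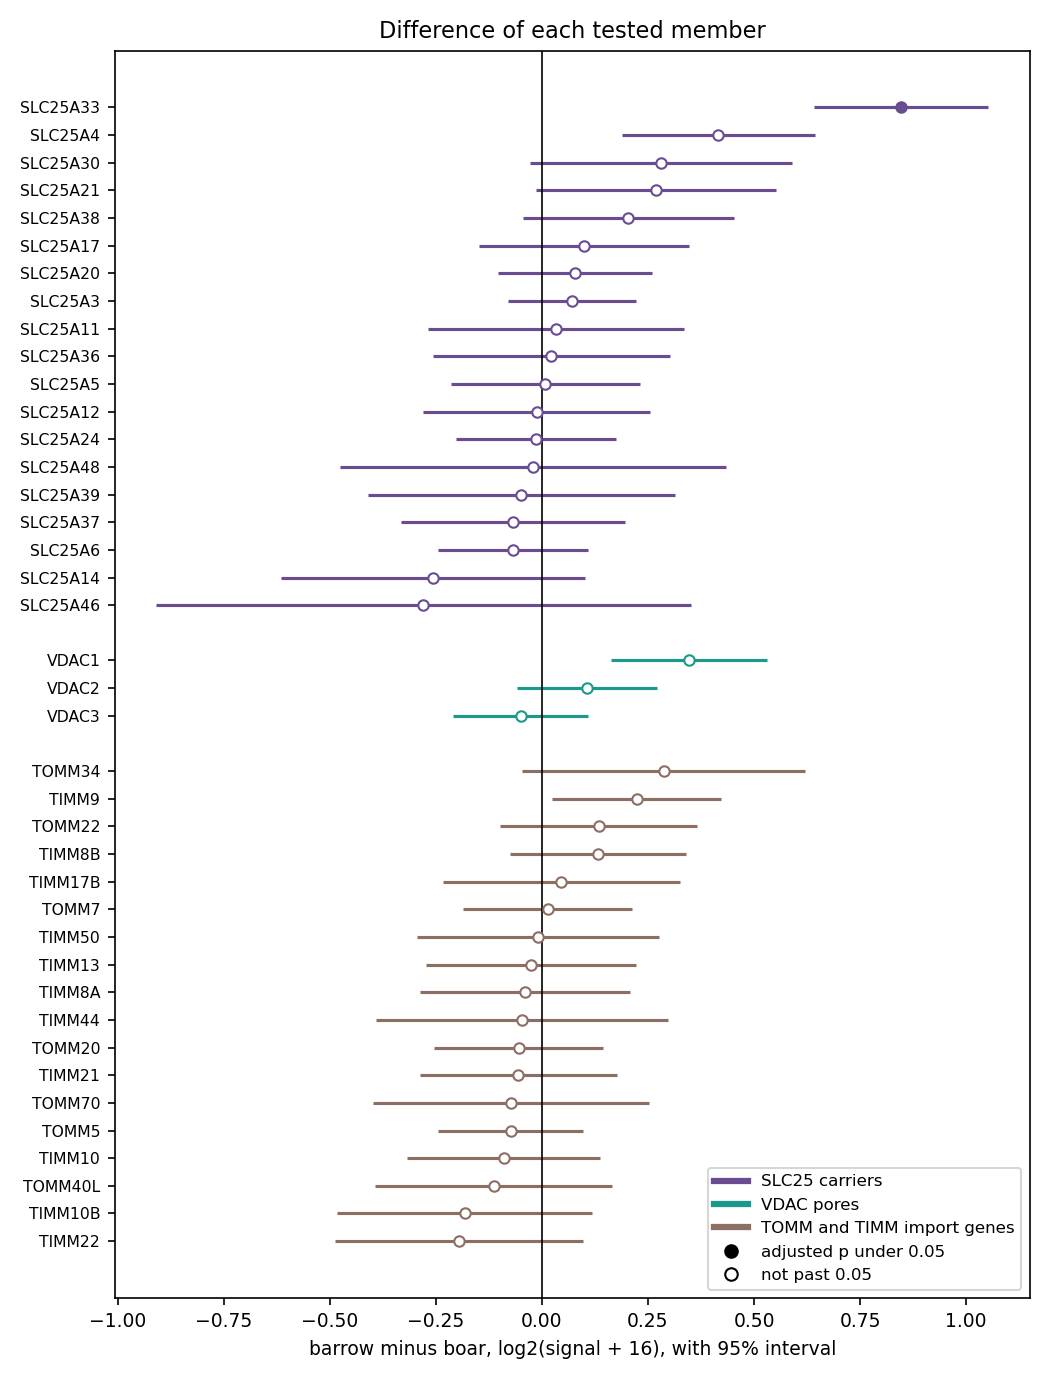
Difference between barrow and boar pools on the log2(signal + 16) scale for the 40 tested genes (points, with 95% intervals of the limma fit as bars), ordered by size within SLC25 carriers, VDAC pores and import genes. A filled point passed an adjusted p of 0.05, which was the case for SLC25A33 alone at 0.85, and most other intervals include 0.

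SLC25A33 imports pyrimidine nucleotides used to make mitochondrial DNA and RNA, and in cultured cells its transcript is induced by insulin and insulin-like growth factor. Its signals were 1598, 1676 and 1415 in the boar pools and 2867, 2583 and 3017 in the barrow pools. The groups were far apart, the lowest barrow pool lying above the highest boar pool by more than the whole range of either group. The mean rose from 1563 ± 134 to 2822 ± 221 (SD, n = 3 each), a log2 difference of 0.85 (95% CI 0.64 to 1.05, limma adjusted p = 0.0026), which placed it at rank 14 by p among all probe sets. With the replicate block the adjusted p was 0.0058. The call was kept under each of the 15 other settings, with differences from 0.78 to 0.91 and adjusted p from 3.0e-04 to 0.045, the last without the intensity trend. A second probe set of the gene was dim, with signals from 3.90 to 47.4, and was not tested. In bulk tissue, fewer cells of a type and less RNA per cell cannot be told apart, here or in the results that follow.

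SLC25A36, the other pyrimidine nucleotide carrier, had 574, 575 and 674 in boars and 588, 724 and 549 in barrows. The groups overlapped, with a log2 difference of 0.02 (95% CI -0.26 to 0.30, adjusted p = 0.97). Within each pool the log2 ratio of SLC25A33 to SLC25A36 was 1.45, 1.52 and 1.05 in boars and 2.26, 1.81 and 2.43 in barrows. The ratio was thus higher by 0.82 in barrows (exact 2-sided permutation p = 0.10, the smallest that 3 against 3 pools allow). It was chosen after the values were seen, with the SLC25A33 groups already apart, so this p is not separate evidence of a difference.

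SLC25A4, SLC25A5 and SLC25A6 exchange ADP for ATP across the inner membrane. SLC25A4, the form typical of heart and skeletal muscle, had signals of 2179, 2223 and 1810 in boars and 2746, 3045 and 2507 in barrows. All barrow pools were above all boar pools, and the mean went from 2071 ± 227 to 2766 ± 270 (SD, n = 3 each). The log2 difference was 0.42 (95% CI 0.19 to 0.64), with a limma adjusted p of 0.097 without and 0.021 with the replicate block. Leaving out boar replicate 3 gave 0.32 (adjusted p = 0.36). The 9 muscle markers, all under the filter, summed to 203 to 228 in boar pools and 192 to 232 in barrow pools.

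SLC25A5, the form that many growing cells use, had 3082, 2661 and 2707 in boars and 2735, 3238 and 2551 in barrows. Its groups overlapped, with a log2 difference of 0.01 (95% CI -0.21 to 0.23). SLC25A6, a broadly expressed form, had 7492, 6886 and 6212 against 6356, 6366 and 6876, a difference of -0.07 (95% CI -0.24 to 0.11). Set against SLC25A5 within each pool, SLC25A4 was higher in barrows by 0.41 on the log2 scale, and against SLC25A6 by 0.48, and in both ratios the groups did not overlap (exact 2-sided permutation p = 0.10 each). Both ratios were chosen after the values were seen. The 3 genes are close relatives, and cross-hybridisation between their probes was not tested.

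The phosphate carrier SLC25A3, which brings in the phosphate for ATP synthesis, did not pass the threshold. Its signals were 12359, 11990 and 11077 in boars and 12643, 12910 and 11662 in barrows, a log2 difference of 0.07 (95% CI -0.08 to 0.22). SLC25A24, a calcium-regulated exchanger of ATP-magnesium and phosphate, had -0.01 (95% CI -0.20 to 0.18). SLC25A17 lies in peroxisomes, where it moves cofactors such as coenzyme A. It had 0.10 (95% CI -0.15 to 0.35) and turned to -0.03 without barrow replicate 2, which at 4527 was its highest pool.

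**Figure D2:**
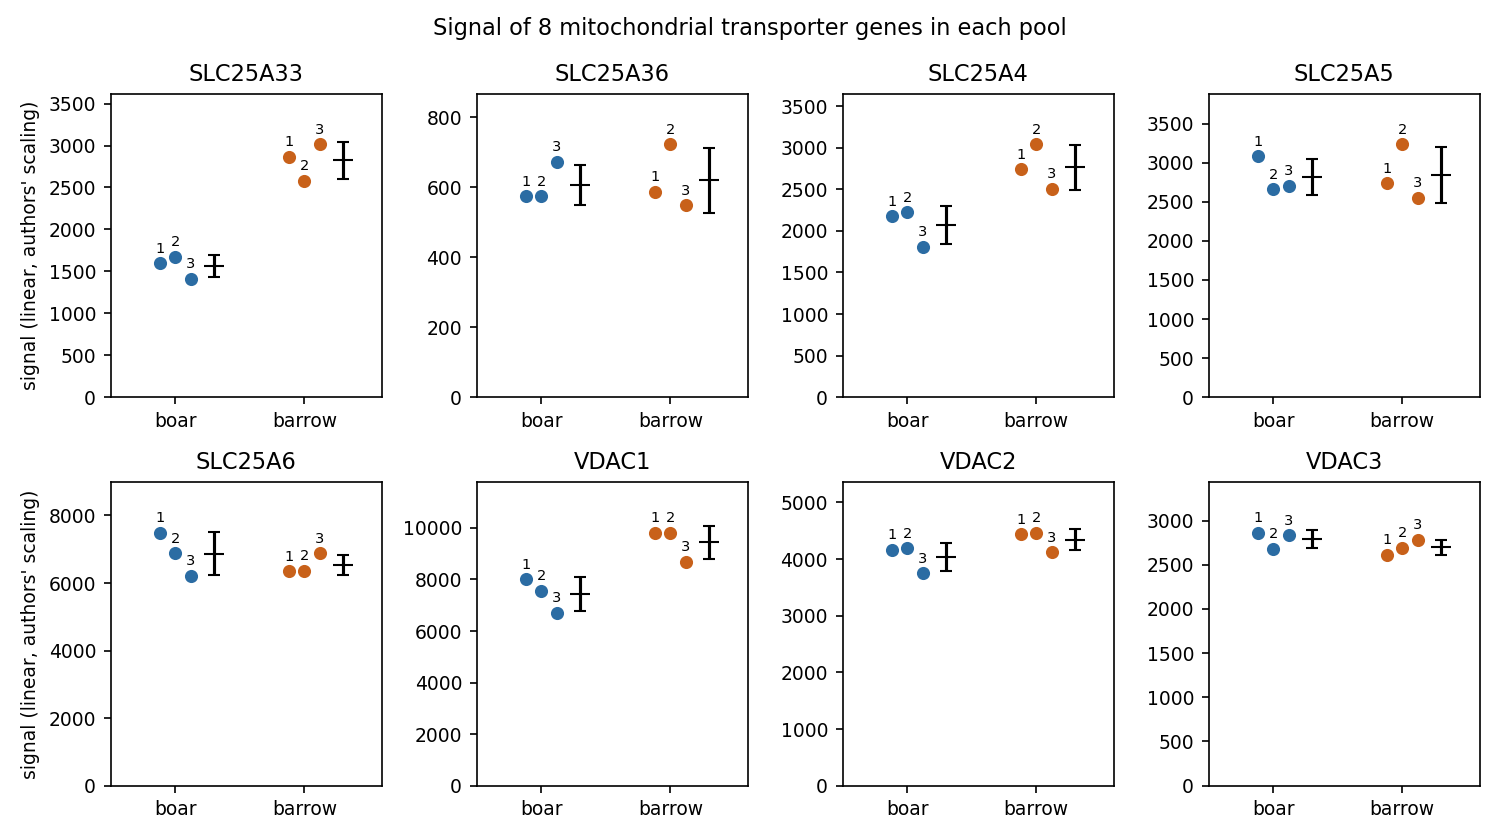
Signal of 8 genes in each pool (points, numbered by replicate, on a linear axis from 0), with the group mean and SD beside them. The barrow pools lie above all boar pools for SLC25A33, SLC25A4 and VDAC1, and the groups overlap for SLC25A36, SLC25A5, SLC25A6, VDAC2 and VDAC3.

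None of the carriers of organic acids and acylcarnitines passed the threshold. SLC25A20 brings acylcarnitines into the matrix for oxidation. Its signals were 1824, 1711 and 1660 in boars and 1872, 1905 and 1710 in barrows, higher in barrows in each of the 3 numbered pairs but overlapping between groups (log2 difference 0.08, 95% CI -0.10 to 0.26). The malate and oxoglutarate carrier SLC25A11 had 0.03 (95% CI -0.27 to 0.33) and the aspartate and glutamate carrier SLC25A12 had -0.01 (95% CI -0.28 to 0.26). Both belong to the malate-aspartate shuttle. SLC25A21, which carries oxodicarboxylates of lysine and tryptophan breakdown, had 391, 357 and 399 in boars and 490, 394 and 515 in barrows. Its barrow replicate 2 fell within the boar range, and the difference of 0.27 (95% CI -0.01 to 0.55) had an adjusted p of 0.44, or 0.27 with the block.

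Among carriers of iron, heme precursors and glutathione, none passed the threshold in either fit. SLC25A38, which supplies glycine for heme synthesis, had 407, 447 and 417 in boars and 466, 543 and 464 in barrows. Its groups did not overlap, yet the difference of 0.20 (95% CI -0.04 to 0.45) had an adjusted p of 0.52. The iron carrier SLC25A37 had -0.07 in its brightest probe set and 0.06 in the other, and the glutathione carrier SLC25A39 had -0.05 (95% CI -0.41 to 0.31). Of the erythroid markers, ALAS2, HBB and AHSP were tested, at 0.32, -0.04 and 0.34, with 0 past the threshold in limma and 1 at an unadjusted p under 0.05, and their summed signal was 1316 to 1390 in boars and 1353 to 1643 in barrows. Their part in the values of these carriers was not tested.

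The carriers nearest to the uncoupling proteins differed in sign from each other. The uncoupling proteins UCP2 and UCP3 do not have an SLC25 symbol. They were counted with other transporters below, at log2 differences of -0.73 and 0.12. SLC25A30 had 220, 237 and 188 in boars and 263, 250 and 279 in barrows, and SLC25A14 had 152, 181 and 152 in boars and 122, 141 and 134 in barrows. Neither gene's groups overlapped, with the barrow pools above for SLC25A30 (0.28, 95% CI -0.03 to 0.59) and below for SLC25A14 (-0.26, 95% CI -0.62 to 0.10). Neither passed (adjusted p = 0.46 and 0.58), and a second probe set of SLC25A14 had 0.01. SLC25A46, an outer membrane protein of the family that acts in mitochondrial fission, had the largest negative difference of the 19 tested carriers, -0.28 (95% CI -0.91 to 0.35). Barrow replicate 3 was at 103 against 244 and 261 in the other barrow pools, and without it the difference was 0.11. SLC25A48 had -0.02 (95% CI -0.47 to 0.43), with signals of 77.2 to 123.

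Counted together, 11 of the 19 tested carriers were above 0 and 8 below, with a median log2 difference of 0.02, where all 5356 tested genes had -0.01. The groups did not overlap in 4 carriers that were higher in barrows (SLC25A33, SLC25A4, SLC25A30 and SLC25A38) and 1 that was lower (SLC25A14), beside 8.38% and 9.76% of all probe sets in these directions. Over the 5356 tested genes, with 1 probe set each, the counts were 510 and 539. Without barrow replicate 3 the median was 0.11 and 7 carriers lay wholly higher, where 13.3% of all probe sets did so. At an unadjusted p under 0.05 there were 2 of 19 carriers, SLC25A33 and SLC25A4, beside 734 of all 5356 tested genes, which is also the background for the unadjusted counts of the other lists. For 13 of the 19, the 95% interval lay within 0.5 of 0 on the log2 scale, that is, within a 1.41-fold difference either way.

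VDAC pores let ADP, ATP, pyruvate and other small molecules through the outer membrane, and VDAC1 also holds hexokinase at the mitochondrial surface. VDAC1 had signals of 8004, 7567 and 6704 in boars and 9818, 9816 and 8683 in barrows. The lowest barrow pool was above the highest boar pool, and the mean went from 7425 ± 661 to 9439 ± 655 (SD, n = 3 each). The log2 difference was 0.35 (95% CI 0.16 to 0.53), with an adjusted p of 0.086 without and 0.020 with the replicate block, and 0.049 with array weights. Its other probe set gave 0.39 with groups apart as well (3318, 3323 and 3006 against 3981, 5057 and 3715, adjusted p = 0.14, and 0.047 with the block). Without boar replicate 3 the difference of the brightest probe set was 0.28 (adjusted p = 0.33).

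VDAC2, which restrains the cell death protein BAK, had 4166, 4188 and 3749 in boars and 4443, 4467 and 4123 in barrows, a log2 difference of 0.11 (95% CI -0.06 to 0.27). Its 5 probe sets did not move together. A dim one had 0.27, and the other 3 had -0.11, -0.12 and -0.18, the last with groups apart (unadjusted p = 0.047, adjusted p = 0.40). VDAC3 had 2863, 2679 and 2835 against 2615, 2692 and 2784, a difference of -0.05 (95% CI -0.21 to 0.11). Within each pool the log2 ratio of VDAC1 to VDAC2 was higher in barrows by 0.24 and that of VDAC1 to VDAC3 by 0.40, without overlap between groups (exact 2-sided permutation p = 0.10 each). These 2 ratios, the 2 of the ADP/ATP carriers and that of the pyrimidine carriers were chosen after the values were seen. SLC25A4 and VDAC1 each enter 2 of them, so the 5 are not separate results. All 5 stood at the same smallest possible permutation p. Adjustment over the 5 therefore had to leave it at 0.10, and does not correct for that choice. With signs exchanged only within the numbered pairs, as the pairing would have it, each exact p was 0.25, the smallest that 3 pairs allow, and all 5 ratios were higher in barrows in 3 of 3 pairs.

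**Figure D3:**
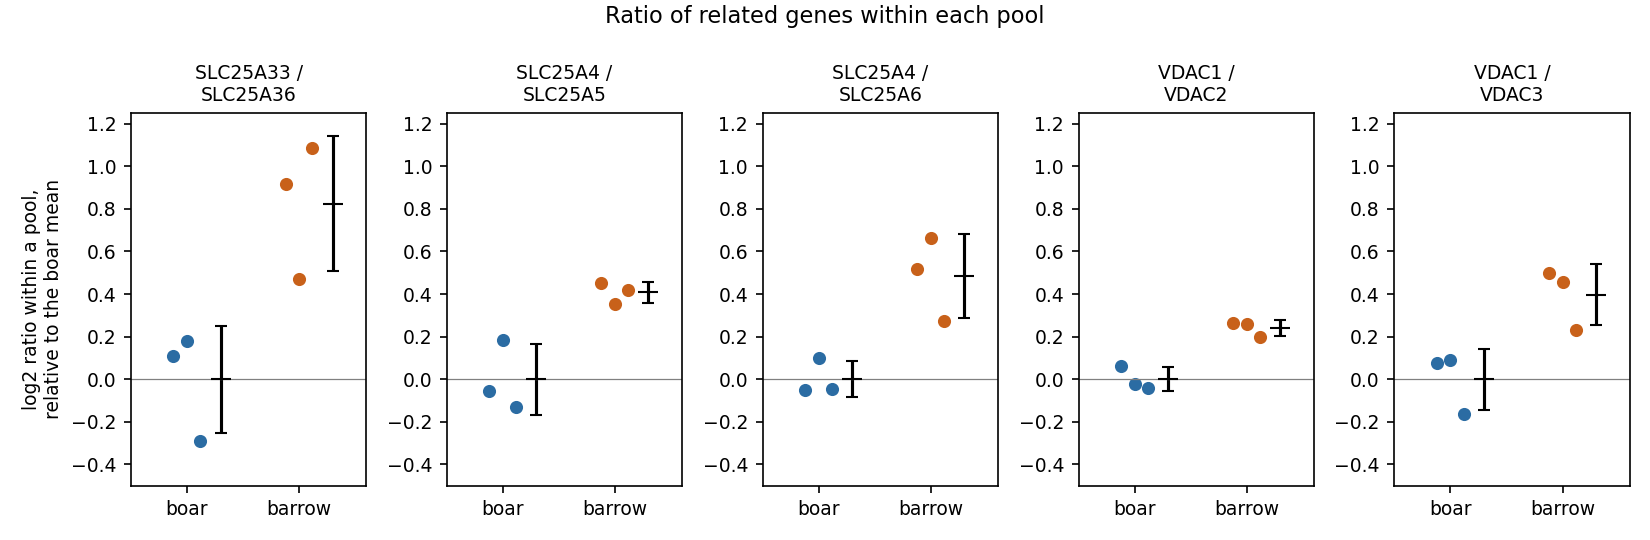
Log2 ratio of related genes within each pool, shown relative to the boar mean of that ratio (points are pools, bars are mean and SD of 3). The barrow pools lie above the boar pools in all 5 ratios, by 0.24 for VDAC1 to VDAC2 and by 0.82 for SLC25A33 to SLC25A36. The ratios were chosen after the values were seen.

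The TOM complex is the entry gate for almost all imported proteins. Of the 7 TOMM genes tested, which are not all subunits of the complex, 0 passed limma's threshold or had an unadjusted p under 0.05. TOMM20, the receptor for presequences, had 1567, 1505 and 1635 in boars and 1459, 1673 and 1408 in barrows, and the boar range lay inside the barrow range (log2 difference -0.05, 95% CI -0.25 to 0.15). TOMM70, the receptor for carriers, had -0.07 (95% CI -0.40 to 0.25), and the central receptor TOMM22 had 0.13 (95% CI -0.10 to 0.37). The small subunits TOMM5 and TOMM7 had -0.07 and 0.01, and TOMM40L, a relative of the channel protein, had -0.11. TOMM34, a cytosolic co-chaperone of import, had 220, 255 and 191 in boars and 307, 245 and 270 in barrows, with 1 barrow pool inside the boar range. Its 0.29 (95% CI -0.05 to 0.62, adjusted p = 0.50) was the largest of the 7.

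The TIM23 complex threads proteins with a presequence into the matrix. TIMM50, its receptor, had 931, 874 and 847 in boars and 869, 1062 and 731 in barrows, a log2 difference of -0.01 (95% CI -0.29 to 0.28) with -0.02 in its other probe set. TIMM44, which anchors the import motor, had -0.05, the channel subunit TIMM17B 0.05 and the linker TIMM21 -0.06. All 4 genes overlapped between groups, and all 4 intervals lay within 0.5 of 0.

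The small TIM chaperones and the TIM22 complex insert the SLC25 carriers themselves. TIMM9 had 802, 799 and 800 in boars and 1005, 917 and 893 in barrows. The boar pools were nearly equal and all barrow pools lay above them, which no other import gene showed. The log2 difference was 0.22 (95% CI 0.02 to 0.42), with a limma adjusted p of 0.34, and 0.24 with the block, and TIMM9 was the 1 import gene with an unadjusted p under 0.05. Its partner in the same chaperone ring, TIMM10, had 989, 917 and 905 against 835, 994 and 818, a difference of -0.09 (95% CI -0.32 to 0.14). The other chaperone pair, TIMM8A and TIMM13, had -0.04 and -0.03, TIMM8B had 0.13 and TIMM10B -0.18. TIMM22, the carrier translocase, had 405, 311 and 338 in boars and 321, 299 and 290 in barrows, lower in barrows in each numbered pair but overlapping between groups (-0.20, 95% CI -0.49 to 0.10, adjusted p = 0.61).

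Across the 18 import genes 6 were above 0 and 12 below, the median was -0.04 and the range -0.20 to 0.29. Intervals lay within 0.5 of 0 for 17 of them, TOMM34 being the exception, against 3849 of all 5356 tested genes. Differences beyond 1.41-fold were therefore outside the 95% intervals of these 17 genes, while smaller ones could go undetected.

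Pools of a group differed among themselves. The median deviation of an import gene from its own mean was 0.12 in barrow replicate 2, -0.05 in replicate 1 and -0.10 in replicate 3, and from -0.04 to 0.03 in the boar pools. Among the barrow pools, replicate 2 was the highest for 12 of the 18 genes and replicate 3 the lowest for 14, where over all tested genes these pools were highest or lowest for 42.0% and 36.9%. Carriers had a like order, with replicate 2 the highest for 11 of 19 (median deviation 0.10) and replicate 3 the lowest for 10. Among import genes the order showed in TOMM22 (1407, 1758 and 1363 in barrow replicates 1 to 3) and TIMM13 (1530, 1940 and 1443). In TOMM7 (3362, 4133 and 3398) replicate 2 was also the highest, but replicate 1 was the lowest. Without barrow replicate 2 the median difference of the import genes was -0.11, with 14 of 18 below 0, and 6 of them (TIMM10, TIMM13, TOMM5, TOMM7, TOMM20 and TOMM70) lay wholly below the boar pools, where 16.9% of all probe sets did so. None of them passed the threshold in that fit either (smallest adjusted p = 0.26). Without barrow replicate 3 the median of the import genes was 0.02, with 10 of 18 above 0, the 1 pool whose removal turned the sign of their median. What sets barrow replicate 2 apart was not tested.

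**Figure D4:**
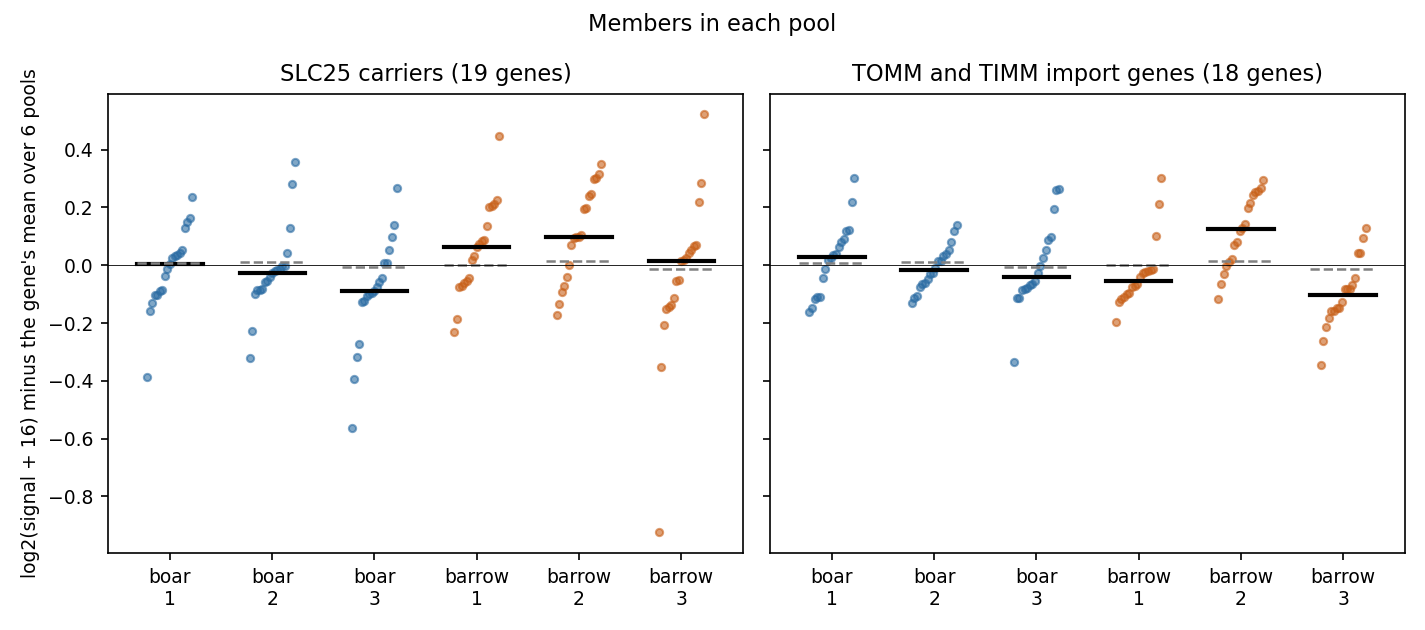
Deviation of each tested carrier (left) and import gene (right) from its own mean over the 6 pools, on the log2(signal + 16) scale, with 1 point per gene, sorted within a pool. Black lines are medians of the class and dashed grey lines medians of all 5356 tested genes, and the import genes stand highest in barrow replicate 2 (0.12) and lowest in barrow replicate 3 (-0.10).

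Other genes of mitochondrial import were counted by limma in the same way. Of 6 tested genes of the import motor and matrix chaperones, 0 passed in either fit at a median of 0.01 (1 at an unadjusted p under 0.05), with DNAJC19, a motor subunit, at 0.32 (adjusted p = 0.30) and the chaperonins HSPD1 and HSPE1 at -0.0041 and 0.14. Of 7 proteases 0 passed (1 at an unadjusted p under 0.05), with 4 above 0, 3 below and a median of 0.01. LONP1, which degrades damaged matrix proteins, had 0.33 (1299 ± 81.1 against 1635 ± 97.1, SD, n = 3 each). Its limma adjusted p was 0.13, or 0.090 with the block. YME1L1 had -0.15 (limma adjusted p = 0.46), with its barrow pools all below the boar pools. Of 9 genes of sorting, insertion and cristae 0 passed (1 unadjusted) at a median of 0.04, with AIFM1, which works with the import oxidoreductase CHCHD4, at 0.25 (adjusted p = 0.18).

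Of 9 other mitochondrial transporters and carrier relatives, MTCH1 and MTCH2 of the outer membrane among them, 0 passed in limma (1 at an unadjusted p under 0.05, UCP2), at a median of 0.09. UCP2, an uncoupling protein homologue abundant in immune cells, had 226, 216 and 288 in boars and 144, 147 and 128 in barrows. Its barrow pools were all below the boar pools, with a log2 difference of -0.73 (95% CI -1.08 to -0.37) and an adjusted p of 0.067, or 0.072 with the block. Of the 7 tested macrophage markers, 6 were below 0 in barrows (median -0.29), 0 passed (4 at an unadjusted p under 0.05) and 1, C1QA, fell with the block, and their summed signal was 7847 to 9972 in boars and 7166 to 8519 in barrows. Their part in the UCP2 value was not tested. The pyruvate carrier subunits MPC1 and MPC2 had 0.06 and 0.29, and MPC2 varied widely between boar pools (12122, 15997 and 9899).

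Genes of the matrix and respiratory chain were taken as reference transcripts of mitochondria, whose amount in the fat was not measured. All 9 tested were above 0, at a median of 0.12, where 2598 of all 5356 tested genes were above 0. The groups did not overlap in 4 of the 9, all higher in barrows, beside 510 of the 5356 in that direction. By limma 0 passed without the block (3 at an unadjusted p under 0.05), and SDHA, a subunit of succinate dehydrogenase, passed with it (0.30, adjusted p = 0.067 and 0.040). The summed signal of the 9 was 44168 to 46046 in boar pools and 48112 to 52426 in barrow pools, without overlap. CS, ATP5A1 and ATP5B were the brightest of them and weigh most in this sum. SLC25A4 and VDAC1, at 0.42 and 0.35, lay above the largest difference of that list, 0.30, but whether they differ from it was not tested. TFAM, which packages mitochondrial DNA, had -0.13 with barrow pools below all boar pools (adjusted p = 0.57). It was 1 of 3 tested regulators of biogenesis, of which 0 passed and 0 had an unadjusted p under 0.05, and PPARGC1A was under the filter.

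Markers of the cell types of fat were also measured. Endothelial markers had a median of -0.20 over 10 genes, 1 of them lower (TEK, -0.47, adjusted p = 0.047), with a summed signal of 17259 to 18061 in boars and 15317 to 16137 in barrows. Adipocyte markers had a median of 0.01 over 7 genes, with leptin, LEP, higher (0.58, adjusted p = 0.021), and summed to 75128 to 79750 in boars and 71687 to 78790 in barrows. Stromal markers had -0.05 over 6 genes, with DPT lower with the block (-0.32, adjusted p = 0.060 and 0.041), summing to 29636 to 32700 and 24522 to 32859. Only 2 lymphocyte markers were tested, CD3E and CD2, at -0.30 and -0.13. Their part in the differences of the carriers and pores was not tested.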

How the data were processed

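Backfat RNA of boars and barrows was measured on 6 arrays, 3 a group. The deposited table holds linear signal intensities made by the authors with MAS5, per the submitters' processing notes. The MAS5 version was not stated. A 2% trimmed mean of 500.09 to 500.10 on every array shows the authors' global scaling. Of 24123 probe sets, 124 control probe sets were left out. The annotation gave 1 symbol to 10069 of the other 23999, several to 198 and none to 13732. All 41 genes described were found in RefSeq (Sscrofa11.1) by gene identifier, with 0 symbols changed. They had 56 probe sets, 48 of them tested. No coordinates are printed, since no build is named for the array.

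Folds refer to the log2(signal + 16) scale, on which differences of dim genes come out too small. Testing covered the brightest 60% of probe sets by mean (14399, signal about 92.7 or more) and was done with limma 3.58.1 in R 4.3.3 (lmFit, eBayes with trend, 2-sided, Benjamini-Hochberg over all probe sets, threshold 0.05). The test was tried on simulated data with known answers. That simulation drew noise separately for each probe set, without shifts shared by the genes of a pool, so it does not cover such shifts. Alternatives were pseudocounts of 1 and 64, no filter, the upper 40%, quantile normalization, array weights, no trend, the mean of probe sets, the replicate block and leaving out each pool.

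The design text has the brothers of a boar pool in a barrow pool, but does not say that equal replicate numbers mark brothers. Residuals of same-numbered boar and barrow pools correlated at 0.12, 0.17 and 0.26 (other combinations -0.19 to -0.01), all above 0.1. Residuals from group means cancel within a group, so the negative values of the other combinations are tied to the positive ones. They are not a separate contrast, and the correlations do not establish that equal numbers mark brothers. Equal numbers were treated as pairs, as an assumption, in the replicate block and in comparisons within numbered pairs. Calls made only with the block rest on that assumption. The main fit, with its intervals and adjusted p, was unpaired. The members, lists and tests were chosen with earlier results of these data known. Genes named were all members past the threshold in either fit, up to 4 per role with the smallest p, a set of core members, and genes whose probe sets disagree in sign with a p under 0.05 in 1. From each other list, genes past the threshold were named, and otherwise up to 2 with the smallest p. SLC25A24, TIMM8A, TIMM13, TOMM7, HSPD1, MPC1, PPARGC1A and some markers were named after their values were seen.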

Additional observations from a re-analysis of the deposited data

How the results depend on the processing

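The number of probe sets called over the whole array was 167, and moved to 96 without a filter, 425 with array weights, 32 without the intensity trend, 338 with the replicate block and 24 (without boar replicate 1) to 291 (without barrow replicate 2) when a pool was left out. Carriers called higher were 1, and 2 with the replicate block. Pores called higher were 0, and 1 with array weights and with the replicate block. The count of carriers called lower, of import genes called in either direction and of pores called lower stayed at 0 under all 15 alternatives. The median of the carriers ranged from -0.017 to 0.11 when a pool was left out, and that of the import genes from -0.11 to 0.02. Carriers wholly higher in barrows were 4 to 7 and wholly lower ones 1 to 2 when a pool was left out, and wholly lower ones were 0 in the upper 40% and with the mean of probe sets. Import genes wholly higher were 1 to 3 and wholly lower 0 to 6 when a pool was left out. With a pool left out, 11.5% to 16.2% of all probe sets lay wholly higher and 13.5% to 17.0% wholly lower. Of 593 recomputed differences of single genes, 549 kept their direction and side of the threshold, 3 gained a call (SLC25A4 and VDAC1 with the replicate block, and VDAC1 with array weights) and 0 lost one or reversed a called value. In 17 genes an uncalled difference changed sign in at least 1 setting, the largest of them 0.28 (SLC25A46). The replicate block changed no call other than those given in the text. The dim genes SLC25A48 and SLC25A14 have wide intervals, and so does SLC25A46, in which barrow replicate 3 lay far from the other pools.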

Other observations

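Another 8 probe sets of these genes were too dim to be tested, and those of SLC25A3 and TIMM44 are given here after their values were seen. The second probe set of the phosphate carrier SLC25A3 averaged 96.8 ± 17.8 in the boar pools and 47.4 ± 30.1 in the barrow pools (SD, n = 3), with the highest barrow pool (82.2) close to the lowest boar pool (82.5), while its bright probe set had a log2 difference of 0.07. For TIMM44, a dim probe set averaged 92.2 ± 8.29 in the boar pools against 56.7 ± 18.9, another 69.9 ± 28.7 against 87.8 ± 32.7, and the brightest had a difference of -0.05. Whether signals this low exceed background is not known from the deposited values.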
